A study of Caenorhabditis elegans with 2 samples.

Results

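Chromatin bound by the transcription factor CEH-18 was mapped in late embryos of Caenorhabditis elegans, and 455 autosomal binding summits lay inside gene bodies, of 2575 summits in all and 2005 on autosomes. A summit is the base at which a peak of immunoprecipitated DNA is highest. A gene-body summit was taken here as one on chromosomes I to V inside the span of a protein-coding gene, not in any promoter window (the 1000 bp before and 200 bp after a protein-coding 5′ end), and more than 200 bp from any tRNA, snoRNA or snRNA gene. The other autosomal summits were 873 in promoter windows, 502 in distal intergenic sequence and 175 near those small RNA genes. The 455 summits lay in 308 host genes, and 417 of them were in introns.

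The study profiled strain OP533, unc-119(tm4063) III; wgIs533, which carries the transgene insertion wgIs533 expressing CEH-18 with a GFP-FLAG tag at its C-terminus. Whole hermaphrodite embryos at a late stage were taken 3 h after synchronisation by egg bleaching, with 2 biological replicates in 1 group and fragmentation by sonication. The labels' description names an antibody to GFP and their antibody field names ceh-18, so the protein precipitated is taken as the tagged one. No other genotype, stage or treatment was measured, the cells of all embryonic tissues were mixed, and a binding site used in few cells cannot be told apart from weak binding in many. Only peak lists were analysed, so the read depth is unknown and no interval can be given for the signal of a peak.

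CEH-18 belongs to the POU family, whose members carry a POU-specific domain beside a homeodomain and are known to bind octamer sequences such as ATGCAAAT. In C. elegans it is known from the sheath cells of the gonad, where it is needed to keep oocytes arrested in meiosis, and from the epidermis. Introns of nematode genes are mostly very short, and long introns are known places for enhancers, alternative promoters and nested non-coding genes.

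The sequences around strong summits show what the bound intronic DNA looks like. The 10 strongest gene-body summits on chromosomes II to V are given as the summit with 75 bases on either side, from the RefSeq WBcel235 genome (the same build as ce11), written 5′ to 3′ on the strand of the host gene, with that strand in parentheses. Capitals mark GAGAGA or its complement TCTCTC, the GA repeat described further on, and TGCGTCTC or its complement GAGACGCA, a word noticed on reading these sequences.
zfp-1 chrIII:8801993-8802143 (+): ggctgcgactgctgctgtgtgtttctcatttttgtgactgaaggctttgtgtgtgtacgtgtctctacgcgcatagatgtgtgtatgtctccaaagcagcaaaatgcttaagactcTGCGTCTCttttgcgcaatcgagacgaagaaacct
miz-1 chrIV:10821832-10821982 (+): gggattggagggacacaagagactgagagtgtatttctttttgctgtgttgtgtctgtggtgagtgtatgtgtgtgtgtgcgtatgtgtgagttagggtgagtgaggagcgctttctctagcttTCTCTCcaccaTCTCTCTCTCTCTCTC
T24B8.3 chrII:9060423-9060573 (-): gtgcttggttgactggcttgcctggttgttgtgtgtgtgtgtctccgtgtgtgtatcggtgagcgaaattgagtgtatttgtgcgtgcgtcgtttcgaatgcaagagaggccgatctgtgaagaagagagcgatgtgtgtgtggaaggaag
Y111B2A.12 chrIII:12612627-12612777 (+): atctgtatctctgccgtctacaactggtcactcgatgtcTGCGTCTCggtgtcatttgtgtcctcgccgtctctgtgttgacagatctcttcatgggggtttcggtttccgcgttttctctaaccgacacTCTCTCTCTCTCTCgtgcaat
pqn-41 chrIII:1925212-1925362 (+): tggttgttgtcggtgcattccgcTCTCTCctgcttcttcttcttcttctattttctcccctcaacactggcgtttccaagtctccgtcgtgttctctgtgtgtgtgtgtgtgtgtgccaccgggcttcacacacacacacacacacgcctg
mpk-1 chrIII:4223741-4223891 (-): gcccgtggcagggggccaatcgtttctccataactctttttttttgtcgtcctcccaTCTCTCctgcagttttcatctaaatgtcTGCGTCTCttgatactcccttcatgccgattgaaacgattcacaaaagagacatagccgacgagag
daf-5 chrII:14040385-14040535 (-): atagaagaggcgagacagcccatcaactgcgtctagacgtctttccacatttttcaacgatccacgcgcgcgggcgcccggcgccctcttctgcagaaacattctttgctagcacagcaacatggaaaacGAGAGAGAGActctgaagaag
drap-1 chrV:9731150-9731300 (+): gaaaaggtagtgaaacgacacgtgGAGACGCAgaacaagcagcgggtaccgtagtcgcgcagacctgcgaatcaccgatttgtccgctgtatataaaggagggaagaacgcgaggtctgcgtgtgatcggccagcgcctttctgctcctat
saeg-1 chrV:10858502-10858652 (-): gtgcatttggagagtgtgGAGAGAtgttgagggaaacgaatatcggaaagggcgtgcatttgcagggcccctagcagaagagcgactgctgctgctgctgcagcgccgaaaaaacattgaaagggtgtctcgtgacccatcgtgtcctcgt
larp-1 chrIII:5014035-5014185 (-): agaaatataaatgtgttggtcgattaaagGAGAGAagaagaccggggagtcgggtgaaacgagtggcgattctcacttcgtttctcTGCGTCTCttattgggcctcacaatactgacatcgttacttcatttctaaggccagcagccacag
Of these 10 windows, those of miz-1, Y111B2A.12, pqn-41, mpk-1, daf-5, saeg-1 and larp-1 held the GA repeat. TGCGTCTC or its complement stood in the windows of zfp-1, Y111B2A.12, mpk-1, drap-1 and larp-1. The zfp-1 window was also that of the strongest gene-body summit without GAGAGA. The zfp-1 and T24B8.3 windows held runs of alternating T and G, as did the miz-1 and pqn-41 windows beside the GA repeat. The drap-1 window, also without GAGAGA, held no such run. GC content over the 10 windows ran from 46.4% in larp-1 to 54.97% in drap-1.

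Intronic sequence held most gene-body summits, and coding exons held very few. Introns contained 417 of the 455 summits, or 91.6% (exact 95% binomial interval 88.7 to 94.0%), while they made up 56.9% of the searched sequence, that is of the 44.6 Mb of autosomal gene bodies in which a summit could qualify. Coding exons contained 6 summits, or 1.32% (0.485 to 2.85%), against 37.5% of the searched bases. Exonic sequence of 5′ UTRs contained 26 summits, or 5.71% (3.77 to 8.26%), against 1.45% of the searched bases, and 3′ UTRs contained 6, against 4.13%. In density, these shares amount to 16.4 summits per Mb of intron, 0.359 per Mb of coding exon, 40.2 per Mb of 5′ UTR and 3.26 per Mb of 3′ UTR. Bases were assigned to 5′ UTR first, then coding exon, 3′ UTR and intron. Only transcripts with coding sequence were used, so intronic sequence here lies inside a gene span and outside every exon of such transcripts. It can lie before the start of a shorter transcript of the gene, outside that transcript's introns. The intervals cover counting error only and treat summits as independent, which neighbouring summits of a gene are not.

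**Figure D1:**
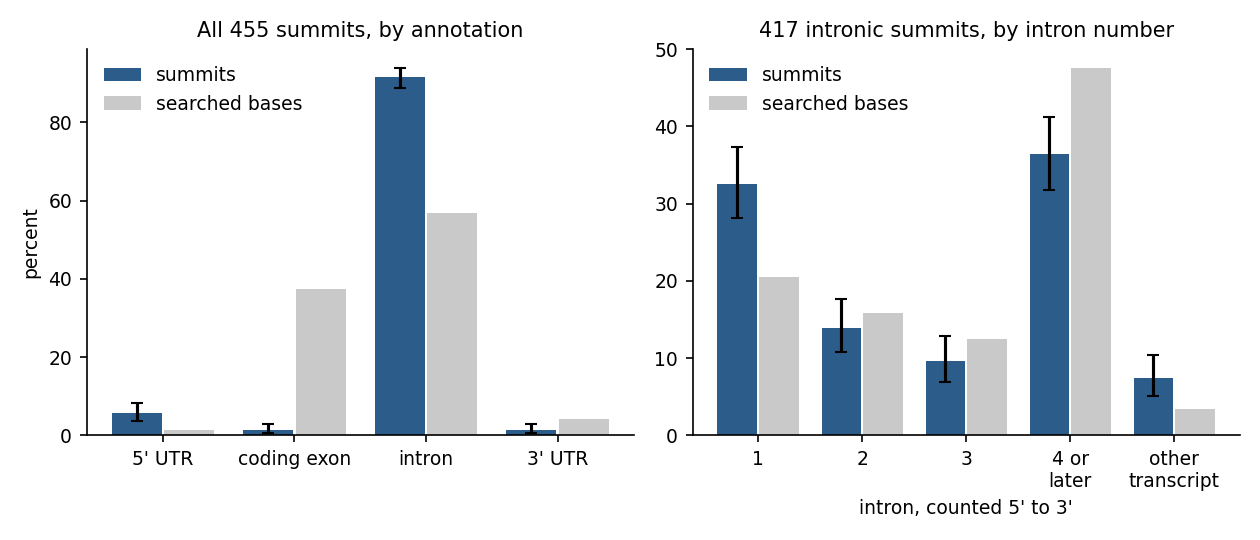
Percent of gene-body summits (blue, with exact 95% binomial intervals) and percent of searched bases (grey) by annotation are on the left. The same is on the right for intronic summits and searched intron bases by intron number. There, "other transcript" means intronic sequence in no intron of the host's transcript with the longest coding sequence. Introns held 91.6% of summits and 56.9% of searched bases, and first introns held 32.6% of intronic summits and 20.6% of searched intron bases.

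Summits lay in long introns. On the host's transcript with the longest coding sequence, 386 summits fell in a numbered intron, whose median length was 3592.5 bp (quartiles 1488 and 7855 bp). The median over all 84045 introns of searched genes was 67 bp, and the median over searched intron bases, which weights each intron by its length, was 956 bp. Introns of at least 1000 bp held 322 of the 386 summits, or 83.4% (79.3 to 87.0%), and 48.3% of the searched intron bases. The density rose from 3.53 summits per Mb (exact 95% Poisson interval 2.26 to 5.25) in introns under 500 bp to 51.0 per Mb (43.0 to 60.1) in introns of 5000 bp or more. The longest intron with a summit, intron 4 of kin-1 at 21230 bp, held 3 intronic summits, and the shortest intron with a summit had 68 bp. In 290 of 386 cases, or 75.1% (70.5 to 79.4%), the summit lay in the longest intron of the transcript, which held 46.5% of the searched intron bases.

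First introns held 136 of the 417 intronic summits, or 32.6% (28.1 to 37.3%), and 20.6% of searched intron bases. Second introns held 58, those numbered 3 held 40 and later introns 152, and the other 31 lay in no intron of the chosen transcript. Among introns of 1000 to under 5000 bp, the density was 29.4 per Mb (22.6 to 37.6) in first introns and 16.9 per Mb (14.0 to 20.3) in later ones. Among those of 5000 bp or more it was 53.3 per Mb (40.2 to 69.4) and 49.6 per Mb (39.8 to 61.2), and these intervals overlap. Along the intron, 174 of the 386 summits, or 45.1% (40.0 to 50.2%), lay in the middle of 3 equal parts, which held 33.6% of the searched intron bases. The median distance was 1499 bp to the 5′ splice site and 1398 bp to the 3′ splice site.

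**Figure D2:**
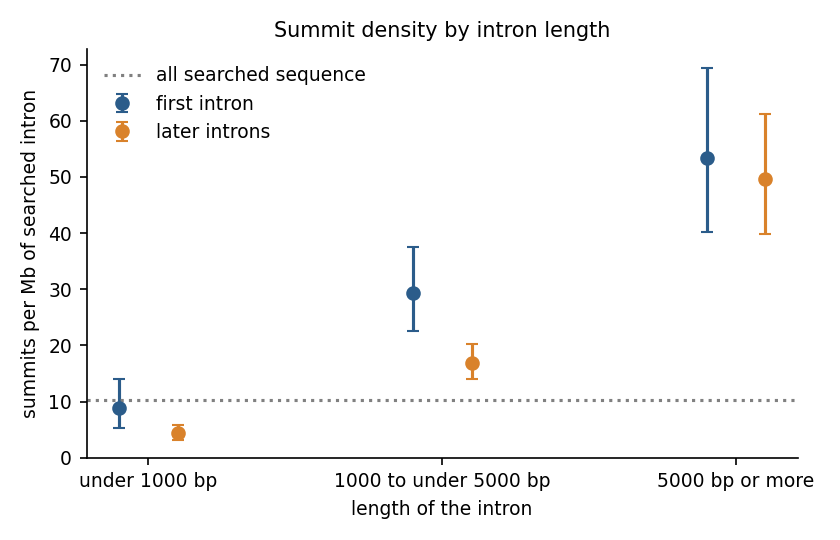
Gene-body summits per Mb of searched intron (points) with exact 95% Poisson intervals (bars), for first introns (blue) and later introns (orange) in 3 classes of intron length, and the density over all searched sequence (dotted line, 10.2 per Mb). The density rises with intron length in both, and first introns lie above later ones among introns of 1000 to under 5000 bp.

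Within the host gene, summits were nearer the 5′ end than the 3′ end. With each gene cut into 5 equal parts, these held 89, 160, 111, 72 and 23 summits from 5′ to 3′. The last of them thus held 5.05% (3.23 to 7.49%) of summits and 19.0% of the searched bases. The rule removes the first 200 bp of every gene and so lowers part 1, which held 15.4% of the searched bases. The median distance from the host's 5′ end was 4122 bp, and the largest was 40146 bp.

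Many of the summits lay close to an annotated start of a coding transcript that is not the gene's outermost 5′ end, called an internal start here. The rule used the outermost end only. Of the 455 summits, 141, or 31.0% (26.8 to 35.5%), were within 1000 bp upstream to 200 bp downstream of an internal start of their host, and such windows made up 8.75% of the searched bases. The density was 36.2 summits per Mb (30.4 to 42.6) in these windows and 7.72 per Mb (6.89 to 8.62) elsewhere. Both are over searched bases of every annotation, coding exons included. Of the 141 summits, 121 lay upstream of the nearest internal start. Over all 141, with downstream positions counted as negative, the median position was 225 bp upstream of it (quartiles 90 and 533 bp). The 141 included 125 of the 417 intronic summits, 16 of the 26 summits in 5′ UTRs and 0 of the 6 in coding exons. Internal starts were annotated in 248 of the 308 hosts, or 80.5%, and in 28.0% of searched autosomal genes, and hosts are long genes. The other 314 summits had no such start nearby, and their median signal of 171 was close to the 163 of the summits near internal starts.

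Nested non-coding genes were the other annotated feature near the summits. Within 200 bp of a gene of the class ncRNA lay 79 summits, or 17.4% (14.0 to 21.2%), and such sequence made up 2.16% of the searched bases. The background shares in this paragraph are over all searched bases, coding exons included. Shares of searched intron bases alone were not counted. The ncRNA genes were on the strand opposite to the host at 51 of the 79 summits, on the host's strand at 12, and on both strands at 16. The strands of ncRNA genes over all searched sequence were not counted, so this split has no background beside it. Only 15 of the 79 were also near an internal start. Antisense RNA genes were within 200 bp of 7 summits, or 1.54% (0.621 to 3.14%), against 0.164% of the searched bases. For piRNA genes it was 3 summits, or 0.659% (0.136 to 1.91%), against 2.82%, and for pseudogenes 3 summits, against 0.611%. Both summits in daf-2, the insulin receptor gene, were within 200 bp of linc-143, and the summit in gmps-1, named here after its value was seen, was within 200 bp of cel-mir-2216. Neither an internal start nor an ncRNA gene was near 250 summits, or 54.9% (50.2 to 59.6%).

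The density also differed between chromosomes. It ran from 6.77 per Mb searched (5.28 to 8.55) on V to 13.2 per Mb (10.95 to 15.8) on I, with 77 summits on II, 100 on III and 87 on IV. By the same rule, the X chromosome had 108 gene-body summits, at 12.2 per Mb (10.03 to 14.8) against 10.2 per Mb (9.29 to 11.2) over the autosomes, and these intervals overlap.

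The median signal of gene-body summits lay between those of promoter and distal intergenic summits. Signal is the value the authors deposited for each peak, in units no source defines, and serves here to rank peaks. Its median was 168 in gene bodies (quartiles 137 and 231), 172 in promoter windows and 166 in distal intergenic sequence. With all 2575 peaks cut by signal into 5 equal classes, gene-body summits made up 21.6% of the autosomal summits in the strongest class and 22.6% in the weakest, with at most 24.0% in between. Of the 100 strongest peaks of the list, taken over all chromosomes including X, 14 had autosomal gene-body summits. Over the whole list these were 455 of 2575. The strongest of all peaks, at 1223, was in a promoter window.

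Both replicates had a peak at nearly every gene-body summit. A replicate peak overlapped 455 of them in replicate 1 and 454 in replicate 2. The signals in the replicates' own lists had a Spearman correlation of 0.69 and a Pearson correlation of 0.74 on the log2 scale over the 454 summits, which share libraries and overlapping peaks and were selected for agreement between replicates. Of the 454, 440 or 96.9% were within 2-fold, and the log2 ratio of replicate 1 to replicate 2 had an SD of 0.45. The summit was called at a median of 12 bp away in each replicate. Among as many top peaks of each replicate's own list as the thresholded list holds, 420 gene-body summits were found in replicate 1, 402 in replicate 2 and 367 in both. The summit missed in replicate 2 is one of the pair in intron 2 of klp-6, which had signals of 378 and 369, and replicate 2 has a single peak there that overlaps the other.

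**Figure D3:**
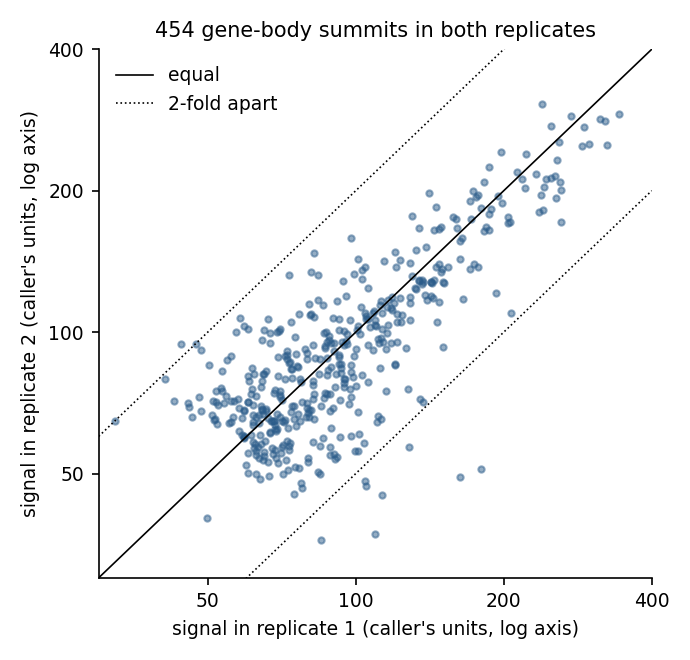
Signal of the peak overlapping each gene-body summit in replicate 1 (x axis) and replicate 2 (y axis), in the caller's units on log axes, for the 454 summits with a peak in both. Most points, 440, lie between the dotted lines that mark a 2-fold difference, and the strongest summits lie close to the line of equal signal.

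The strongest gene-body summit lay in intron 1 of T28F4.1 on chromosome I, with a signal of 625, and its signal was 344 in replicate 1 and 291 in replicate 2. It ranked 23 among all peaks. The next was in intron 7 of ppfr-1, the gene of a PP4 phosphatase regulatory subunit, at 599, with 322 and 281 in the replicates. In intron 9 of zfp-1, which encodes a PHD-finger chromatin protein, the signal was 595, with 314 and 284 in the replicates. The zfp-1 summit lay 751 bp upstream of an internal start. Replicate 1 was the higher of the pair in all 3. The summits in miz-1, at 566, T24B8.3, at 558, and dip-2, at 540, were 752, 404 and 123 bp upstream of internal starts. Those in Y111B2A.12, at 556, and pqn-41, at 549, had none within 2000 bp. The pqn-41 gene encodes a glutamine-rich protein known from the death of the linker cell.

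Several of the strongest summits were in genes of signalling. In mpk-1, which encodes the ERK MAP kinase, the summit of 513 lay in intron 1, of 8247 bp, with 259 in replicate 1 and 254 in replicate 2. In egl-30, which encodes the Gq alpha subunit, the summit of 506 lay in 5′ UTR sequence 1274 bp from the 5′ end, with 249 and 275. In gcy-28, a guanylyl cyclase gene, it was 472, with 261 and 209. Genes of chromatin and transcription were let-526 at 536 and pbrm-1 at 459, which encode subunits of SWI/SNF remodelling complexes, and drap-1 at 469. The value of let-526 was 239 in replicate 1 and 306 in replicate 2, so its replicates were in the opposite order to most of those above. The rest of the 20 strongest were in saeg-1 at 460, larp-1, a La-related RNA-binding protein gene, at 450, ccch-1 at 450, daf-5 at 478 and second summits of ppfr-1 at 461 and zfp-1 at 450.

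Hosting a summit was rare, and it rose with gene length. Of 15994 autosomal protein-coding genes with searched sequence, 308 or 1.93% hosted a gene-body summit. Among genes with under 1000 bp searched 0.105% were hosts, from 5000 to under 10000 bp 5.88%, and with 20000 bp or more 33.1%. Density rose too, from 1.95 per Mb (0.633 to 4.55) in the shortest to 25.04 per Mb (20.3 to 30.5) in the longest. Hosts had a median length of 8729 bp, against 2109 bp for all searched genes. A summit in their own promoter window was present in 60 hosts, or 19.5% (15.2 to 24.4%), and 6.59% of all searched genes had one.

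Some genes held several summits: 217 hosts had 1, 62 had 2 and 29 had 3 or more. Not every summit is a separate site. Of neighbouring gene-body summits, 38 pairs were 199 to 238 bp apart and 0 were between 250 and 500 bp apart, so that the close pairs form a class of their own. Peaks had a median width of 484 bp, and 20 summits shared a peak interval with another. With summits of gene bodies within 250 bp of each other counted once, 70 hosts had 2 or more and 25 had 3 or more.

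The host with most summits was ppfr-1, with 10 in introns 6 and 7 of 25, at signals of 116 to 599. They lay 6792 to 16762 bp from the 5′ end, and counting close pairs once left 6. Replicate 1 and replicate 2 gave 109 and 37.3 at the weakest of these, which shares its replicate 1 signal with the stronger summit next to it. In zfp-1, 6 summits in introns 4 and 9 had signals of 141 to 595, and in pqn-41 all 6 lay in intron 14, of 10372 bp, at 172 to 549. In daf-5, the gene of a Ski-related protein of the TGF-beta pathway, all 6 lay in the first intron, of 14446 bp, from 1630 to 11844 bp from the 5′ end. Their signals were 196, 142, 133, 265, 188 and 478 in 5′ to 3′ order, so the strongest was the farthest from the 5′ end. The forkhead gene fkh-7 had 6 in introns 1, 4 and 6, at 162 to 329. In kin-1, which encodes the catalytic subunit of protein kinase A, 5 summits spread from 3785 to 26304 bp, and 3 of them were near internal starts.

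Hosts with 4 summits were let-526, ccch-1, C34B4.2, hlh-30, T28B11.1 and unc-43. In hlh-30, which encodes the homologue of the lysosomal regulator TFEB, the strongest summit was 347, with 172 in replicate 1 and 174 in replicate 2, and lay 225 bp upstream of an internal start. In unc-43, which encodes CaM kinase II, all 4 lay in intron 2, and the strongest was 217. T28B11.1 had its 4 in a first intron of 17091 bp. The 17 hosts with 3 summits were Y111B2A.12, pde-4, tns-1, sms-1, unc-62, aakg-1, daf-16, Y56A3A.7, pkg-2, vhp-1, lsy-22, ell-1, lim-9, akap-1, Y67D8A.2, egl-27 and anc-1. Their products are of many kinds, among them a phosphodiesterase (pde-4), tensin (tns-1), a sphingomyelin synthase (sms-1), a Meis-family homeodomain protein (unc-62) and a MAP kinase phosphatase (vhp-1). The weakest of these 17 by its best summit was anc-1, which encodes a giant nuclear anchor protein, at 141.

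**Figure D4:**
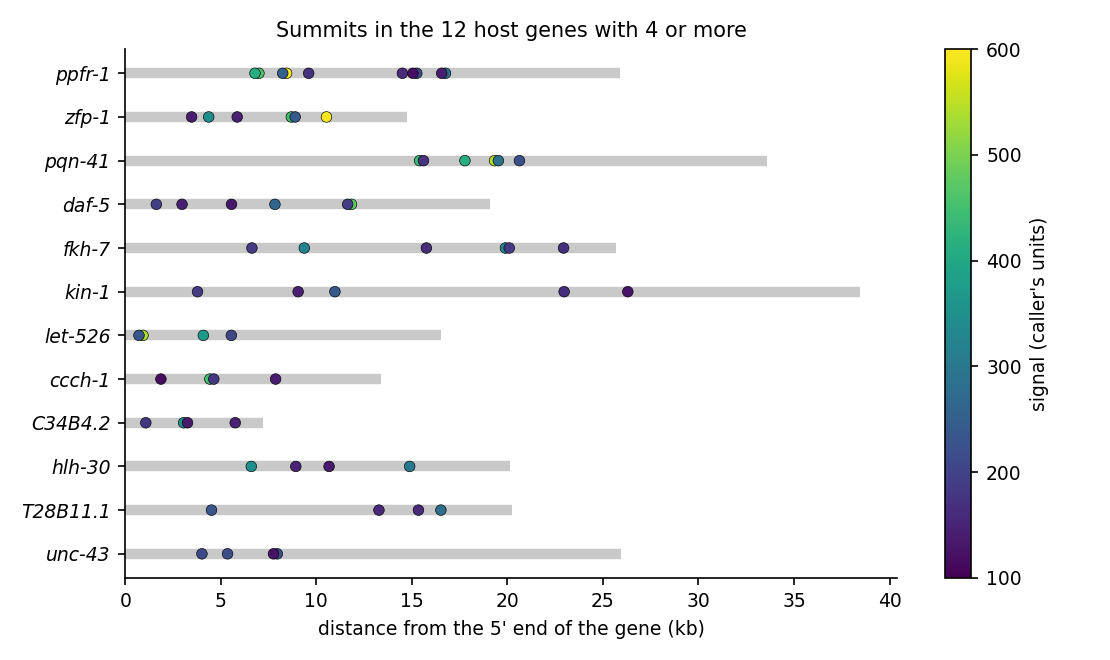
The 12 host genes with 4 or more summits, drawn as grey bars from their 5′ end (0 kb) to their 3′ end, with each summit as a point coloured by its signal in the caller's units. The 6 summits of pqn-41 crowd within one intron, while the 5 of kin-1 spread from 3785 to 26304 bp.

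Hosts were counted in lists of genes by function, which were drawn up with earlier results of these data known and which share some genes. Over all searched genes, 1.93% were hosts, with a density of 10.2 summits per Mb and a median searched length of 1625 bp. The body wall muscle list had 12 hosts of 36 searched genes, with 18 summits, or 46.8 per Mb (27.7 to 73.9), and a median searched length of 5700 bp. The strongest were in unc-94, the tropomodulin gene, at 391, and in lev-11, the tropomyosin gene, at 365, with replicate signals of 198 and 188 for the first and 175 and 194 for the second. In unc-22, which encodes the giant muscle protein twitchin, the summit of 358 lay in intron 1, 372 bp from the 5′ end. In lim-9 the strongest of 3 was 201. Transcription factors of muscle and mesoderm had 4 hosts of 29, with lag-1 at 264, sem-4 at 202, mef-2 at 184 and hlh-1, the MyoD homologue, at 158. The mef-2 summit was uneven, at 113 in replicate 1 and 45.0 in replicate 2.

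Pathways that control dauer entry and lifespan had hosts with 1 to 6 summits each. The list of TGF-beta, insulin and dauer genes had 4 hosts of 33, with 12 summits, or 53.1 per Mb (27.4 to 92.8), and a median searched length of 3772 bp. The hosts were daf-5, daf-14, a Smad gene, at 306, daf-16, the FOXO gene, with 3 summits up to 263, and daf-2 with 2 up to 181. One gene, daf-5, gave 6 of the 12 summits. The list of EGF, FGF, Ras and MAPK genes had 4 hosts of 34, at 19.6 per Mb (7.21 to 42.8), with mpk-1, soc-2 at 210, par-1 at 185 and the exchange factor gene sos-1 at 172. The Wnt list had 2 of 29, lit-1 at 172 and the dishevelled gene dsh-1 at 114, and the Notch list had 1 of 23, lag-1.

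The neuronal lists had from 0 to 7 hosts each, and no test of a difference between lists was made. The synaptic list had 7 hosts of 33, at 29.9 per Mb (14.9 to 53.5), led by egl-30, unc-43, the RGS gene eat-16 at 208 and unc-108, which encodes Rab2, at 167. The list of axon guidance and cell migration had 7 of 40, at 16.7 per Mb (7.62 to 31.6), led by sax-7, of the L1 adhesion family, at 223, then mig-10, sax-2 and unc-73 at 194 to 197. Ion channels and pumps had 2 hosts of 42, or 4.76%, at 4.26 per Mb (0.516 to 15.4). Their median searched length was 7612 bp. Of all genes with 5000 to under 10000 bp searched, 5.88% were hosts, at 10.8 per Mb. The interval of the list includes this density and the 10.2 per Mb of all genes. The 2 hosts were sca-1, the calcium pump of the sarcoplasmic reticulum, at 325 and the GABA receptor gene unc-49 at 231. Neuronal transcription factors had 2 of 43, unc-62 and sem-4. The potassium channel family twk had 1 of 34, twk-42 at 141, and the acetylcholine receptor family acr had 0 of 15.

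Chromatin regulators had 5 hosts of 69, led by zfp-1, let-526, pbrm-1 and egl-27, with 16 summits, or 38.2 per Mb (21.8 to 62.1), of which zfp-1 and let-526 gave 10. RNA-binding and splicing regulators had 5 of 48, at 31.8 per Mb (13.7 to 62.7), among them larp-1, asd-2 at 314, lin-28 at 249 and the SR protein kinase gene spk-1 at 247. In lin-28, a developmental timing gene, the replicates gave 97.8 and 158. Cytoskeletal linkers had 5 of 47, led by klp-6 at 378, frm-1 at 212, vab-10 at 192 and anc-1. Junction and polarity genes had 4 of 26, sax-7, the cadherin gene hmr-1 at 216, par-1 and srgp-1 at 126. Basement membrane genes had 3 of 18, ost-1, the SPARC gene, at 262, gon-1 at 157 and unc-52, the perlecan gene, at 115. Kinesin-like genes named klp had 4 of 11, klp-6, klp-12, klp-7 and klp-11, and epidermal factors had 1 of 20, the Runx gene rnt-1 at 202.

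Large gene families are described last. Nuclear hormone receptor genes had 4 hosts of 244, at 9.95 per Mb (3.65 to 21.7), nhr-19 at 289, nhr-46 at 234, nhr-66 at 188 and nhr-34 at 126. Collagen genes named col had 2 of 128, at 13.6 per Mb (1.64 to 49.0), col-72 at 159 and col-130 at 144. The Patched-related genes had 1 of 21, at 15.0 per Mb (1.82 to 54.1), ptr-12 with 2 summits up to 193. These 3 intervals include the 10.2 per Mb of all genes. There were 0 hosts among 45 homeobox genes named ceh, 303 F-box genes, 234 C-type lectin genes, 100 neuropeptide and insulin-like genes, 42 ribosomal protein genes, 5 myosin genes named hum and 15 ubiquitin-conjugating genes. Many of these are short, with median searched lengths of 1058 bp for the F-box genes and 378 bp for the ribosomal protein genes. At 0 summits, the exact upper limit was 9.77 per Mb for F-box genes, 9.62 per Mb for C-type lectin genes, 28.6 per Mb for ceh genes and 216 per Mb for ribosomal protein genes. The first pair lies just below the 10.2 per Mb of all genes and the others lie above it. Short genes had fewer summits per Mb, 1.95 with under 1000 bp searched and 2.69 with 1000 to under 2000 bp. The limits for F-box and C-type lectin genes, whose median searched length was 1318.5 bp for the latter, lie above both values. Their 0 counts therefore do not show fewer summits than in other genes of such length.

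The 38 summits outside introns were mostly in 5′ UTR exons. The 10 strongest of them had signals of 217 to 506, of which 9 lay in 5′ UTR. Those were 2 in egl-30 and 1 each in C34C12.2, unc-62, rsbp-1, lin-28, spk-1, T09B4.3 and Y43F8B.2, and the other was pals-26, at 314, in a 3′ UTR. The 6 in coding exons, named here after their values were seen, were R08C7.12, col-130, nrfl-1, C40H1.3, pygo-1 and pqn-80, all with signals of 115 to 144, below the median of all gene-body summits.

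The DNA at the summits was rich in G and C compared with its surroundings. Median GC content over the summit with 75 bases on either side was 47.7%, and 35.1% in flanks of the same width centred 500 bp away. It was 33.1% over all 168033 windows of this width that tile the searched introns. Promoter and distal intergenic summits had medians of 46.4 and 47.0%. Counts of sequence words depend on base composition, and its part in the differences below was not tested.

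The GA repeat was the most frequent of the searched words that were enriched. GAGAGA or its complement lay within 75 bp of 253 of 455 summits, or 55.6% (50.9 to 60.2%), and in 9.67% of the flanks at lower coordinates (exact McNemar test on 223 summits with the word at the summit only and 14 with it in the flank only, two-sided, adjusted p = 2.11e-48 over 16 motifs). Over all searched intron windows, 6.33% held it. TGTGTG was found at 25.9% of summits and 8.57% of flanks (the same exact test, adjusted p = 2.44e-12), and GCGCGC at 7.69 and 0.659% (6.21e-08). GGGCGG, a GC box, was at 9.45 and 4.18% (0.0051), and CACGTG, an E-box known to be bound by basic helix-loop-helix proteins, at 5.93 and 2.20% (0.0153). TGTGTG stood in 5.78% of all searched intron windows. CACGTG was no longer called by this exact test with flanks 1000 bp away (adjusted p = 0.202), and neither GGGCGG (0.0792) nor CACGTG (0.0659) with the strongest peaks of replicate 1 alone. GGGCGG was also not called among the stronger 1287 peaks of the list (4.57 percentage points higher at summits, exact test, adjusted p = 0.196). The McNemar tests treat summits as independent and compare sequence within this list of summits, not conditions. The words and tests were chosen with earlier results of these data known. The p-values here and in the comparisons of words below therefore describe differences and are not independent support.

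Other words were rarer at the summits than in the flanks. AAAAAA was at 27.5% of summits and 53.4% of flanks (exact McNemar test, adjusted p = 2.3e-14). TTTTCAG, the consensus of the 3′ splice site, was at 2.42 and 13.8% (1.08e-09), and TAATTA, a core of many homeodomain sites, at 0.879 and 5.93% (9.05e-05). The octamer ATGCAAAT was at 1 summit, or 0.220% (0.00556 to 1.22%), and in 1.54% of flanks, with an adjusted p of 0.125. Over all searched intron windows 1.18% held it. Its first 5 bases, ATGCA, were at 18.7% of summits and 22.2% of flanks (exact McNemar test, adjusted p = 0.279). The other words, for which no difference was called, were the E-box CANNTG, the GATA word TGATAA, the AP-1 site TGACTCA, the forkhead site GTAAACA, the tRNA B-box core GGTTCGA and the 5′ splice word GGTAAG. A missing match says only that these letters are not in the window.

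Around the summit, the GA repeat was spread over a plateau rather than a point. In 25-bp bins, 14.5 to 15.6% of gene-body summits had the word in each bin from 100 bp before to 100 bp after the summit, by its start. At 475 to 500 bp this was 1.76 to 2.86%. Windows often held long runs: 148 had at least 2 starts of the word, 53 at least 5, and 26 were counted in 1 window. Counted on the host's strand, 80 windows had GAGAGA only, 134 had TCTCTC only and 39 had both. GAGAGA was thus the sense word in 37.4% (30.9 to 44.2%) of those with 1 of them, and in 44.7% of 10271 such windows over the searched introns. The share of summits with the word was 69.2% (58.7 to 78.5%) among the strongest 91 gene-body summits and 46.2% (35.6 to 56.9%) among the weakest 91. The classes of 91 between them, from stronger to weaker, had 63.7, 57.1 and 41.8%, so the fall was not steady. The share was 53.9% near internal starts and 56.4% away from them, with intervals of 45.3 to 62.3% and 50.7 to 61.9%.

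**Figure D5:**
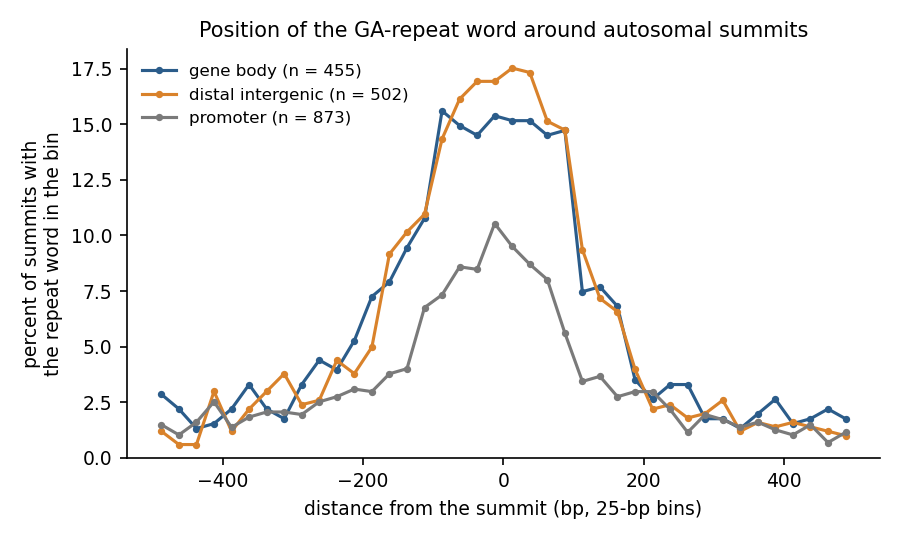
Percent of autosomal summits with a start of the GA-repeat word on either strand in each 25-bp bin (y axis) by distance from the summit along the chromosome (x axis), for gene-body (blue), distal intergenic (orange) and promoter (grey) summits. Gene-body summits reach 15.6% and promoter summits 10.5%, and all 3 lines come down to between 0.598 and 2.86% at 450 to 500 bp.

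Promoter summits held the GA repeat less often. GAGAGA was at 326 of 873, or 37.3% (34.1 to 40.6%), which is 18.3 percentage points below gene-body summits (95% Newcombe interval 12.6 to 23.8; Fisher's exact test, two-sided, adjusted p = 8.41e-09 over 32 comparisons). By the same exact test, gene-body summits held AAAAAA (27.5 against 37.3%, adjusted p = 0.005), GCGCGC (7.69 against 13.5%, 0.0118) and TTTTCAG (2.42 against 6.41%, 0.0118) less often than promoter summits. These 3 were not called among the stronger 1287 peaks of the list, which hold fewer summits (219 in gene bodies), while GAGAGA was. There the differences were -5.10 percentage points for AAAAAA, -6.20 for GCGCGC and -2.07 for TTTTCAG (exact test, adjusted p = 0.664, 0.275 and 0.791), and -9.87, -5.82 and -4.00 over all peaks. AAAAAA and TTTTCAG were also not called by the exact test within 50 bp of the summit (0.946 and 0.166), and TTTTCAG was not with summits within 250 bp merged (0.0649).

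Against distal intergenic summits, none of the 16 words was called by Fisher's exact test, and 0 had an unadjusted p below 0.05. GAGAGA was at 304 of 502, or 60.6% (56.1 to 64.9%), a difference of -4.95 percentage points for gene-body summits (95% Newcombe interval -11.2 to 1.30). TGTGTG was at 26.7% and AAAAAA at 28.1% of these summits. The lowest unadjusted p, 0.0803, was that of CANNTG, at 48.6% of gene-body and 54.4% of distal intergenic summits. With the strongest peaks of replicate 1 alone, CANNTG was called lower.

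The word TGCGTCTC was chosen because it recurred among the sequences printed above, so it is described with no test. It or its complement was at 60 of the 445 gene-body summits not printed, or 13.5% (10.4 to 17.0%), at 0.899% of their flanks on either side, and in 0.875% of all searched intron windows. Promoter summits held it at 13.7% and distal intergenic summits at 18.7%. The shares were lower at summits near small RNA genes, 3.43% (1.27 to 7.31%), and at gene-body summits on X, 3.70% (1.02 to 9.21%), which are 4 of 108. Leaving out the printed windows, which are all among the strongest 91, it was at 19 of the other 81 of these, or 23.5% (14.8 to 34.2%), and at 7.69% (3.15 to 15.2%) of the weakest 91. Without them it was at 17.9% (13.3 to 23.3%) of the gene-body summits with GAGAGA and 8.04% (4.67 to 12.7%) of those without. TGCGTCTC stood on the host's strand at 45 summits and its complement at 22, with both at 2 of the 65.

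The summits nearest to the edges of the rule had signals of 127 to 276. Just inside the upstream limit was T28F4.4, whose summit was 1001 bp upstream of pbrm-1, at 137, and just outside was one in wht-3, 990 bp upstream of har-1, at 127. Downstream, T09B4.3 was inside, 202 bp from its own 5′ end, at 236, and erp-44.1 was outside at 199 bp, at 179. The summit in zip-2 was 216 bp from the nearest small RNA gene, at 276, and that in F33G12.3, 105 bp from one and so outside, had 138. Of the 455 summits, 10 lay in more than 1 gene, and these were given to the shortest.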

How the data were processed

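The labels give chromatin immunoprecipitation of tagged CEH-18 from whole late embryos, with 2 biological replicates. No label says that they came from separate cultures. The authors' lists for ce11 were used: one per replicate, and one from both, thresholded by irreproducible discovery rate per the labels. The signal of a peak is the value the authors deposited, on a scale not stated. The -log10 q deposited by the authors was not used for ranking. The aligner and the caller were not given in the sources used here. Lists on ce10 were not used here. Columns of per-sample values left unused numbered 0.

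Summits were placed on Ensembl release 115 genes of WBcel235, which is ce11, and no peak passed a chromosome end. Searched sequence is every autosomal base that the rule allows. A summit in several genes was given to the shortest, and introns were numbered on the transcript with the longest coding sequence. Peaks of the thresholded list and of a replicate were matched by an overlap of at least 1 bp. Words were searched on both strands in windows of 75 bp on either side of the summit, overlapping matches included, and compared with the flank at lower coordinates by an exact McNemar test and with other summit classes by Fisher's exact test. P-values were adjusted by Benjamini-Hochberg within each family at 0.05. Binomial and Poisson intervals are exact at 95%. Functions were tested on simulated data. Summits are not independent replicates. Members, gene lists, words and tests were chosen with earlier results of these data known. Named genes are hosts of the 20 strongest summits, hosts with at least 3, the 4 strongest hosts of a list, the 10 strongest summits outside introns and those at the rule's edges. Alternatives were other windows, exclusions, merging, the stronger 1287 peaks and each replicate alone. Merging within 250 bp and the word TGCGTCTC were chosen after seeing the data. The software was Python 3.11.15 with scipy 1.17.1, numpy 2.4.6, pandas 2.3.3 and, for the plots, matplotlib 3.10.9.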

Additional observations from a re-analysis of the deposited data

How the results depend on the processing

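The shares in introns and in first introns moved by less than their counting interval under each alternative run for them. The stronger 1287 peaks of the list gave 219 summits, 1.03% of genes as hosts and GAGAGA at 64.8%. Promoter windows drawn at every coding transcript's 5′ end gave 1.37% of genes as hosts, and no exclusion around small RNA genes gave 2.41% and GAGAGA at 50.7%. Within 50 and 100 bp of the summit GAGAGA was at 42.6 and 65.7%. A narrower internal start window, 500 bp upstream to 100 bp downstream, held 20% of summits. At 100 bp, 2 words were higher than at promoter summits, the added one being TGTGTG, and with the stronger 1287 peaks 0 were lower, where 3 had been.

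The strongest peaks of each replicate alone gave 445 to 482 summits, 89.2 to 92.4% in introns and GAGAGA at 55.3 to 56.0%. They gave 3 to 7 words higher than the flanks, where 5 had been, and 0 to 1 lower than at distal intergenic summits. Merging summits within 250 bp, chosen after seeing the data, left 416 summits, with GAGAGA at 57.7%. No paired analysis was possible because there is 1 group. Depth is unknown, so how many weaker sites were missed cannot be given.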
